A study of Homo sapiens with 6 samples.

Results

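The transcript levels of 9 genes for secreted proteins of drusen and of macular disease were followed in ARPE-19 cells after cinobufagin. They are clusterin (CLU), apolipoprotein E (APOE), the serine protease HTRA1, the protease inhibitors TIMP3 and cystatin C (CST3), the serpin family member pigment epithelium-derived factor (SERPINF1), and the matrix glycoproteins EFEMP1, fibulin-5 (FBLN5) and vitronectin (VTN). They were chosen by symbol, through the Entrez gene ID of each entry, and make up 9 of the 17945 genes measured. The cinobufagin group held 3 libraries of cells kept for 24 h with 320 nM of the compound, a bufadienolide of toad venom that inhibits the sodium pump. The DMSO group held 3 libraries of cells kept for 24 h with DMSO, the control treatment. ARPE-19 is a human retinal pigment epithelial cell line, labelled wild type, and all 6 samples come from this single line. No label tells if replicate libraries stem from separate cultures, so a p-value here speaks for the spread among these samples alone, and that spread may be technical.

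The retinal pigment epithelium lies on Bruch's membrane, a sheet of collagen and elastin, and secretes proteins into it. Drusen are deposits of lipid and protein that collect there in age-related macular degeneration, and clusterin, apolipoprotein E, vitronectin and TIMP3 are among the proteins found in them. Missense changes in TIMP3 cause Sorsby fundus dystrophy and a missense change in EFEMP1 causes Malattia Leventinese, while HTRA1, APOE, TIMP3 and VTN lie at or beside loci linked to age-related macular degeneration.

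Levels are given in FPKM, fragment counts divided by transcript length and by library size, which can be compared between genes. Read depth is unknown, and with it the counting error. The FPKM of all genes summed to 534694 to 545499 in cinobufagin libraries and 538039 to 560721 in DMSO libraries. Of the 14 retinal pigment epithelium genes examined, 4 stayed under 1 FPKM in all 6 libraries, and TTR, 1 of these 4, was at 0 in all of them. RPE65, the visual cycle isomerase that defines the mature tissue, was listed at 0 to 0.03 FPKM in both groups, and RLBP1 did not exceed 0.26 FPKM. The transcription factor genes OTX2 and MITF and the keratin genes KRT8 and KRT18 were present, so the line carries some but not all of the listed markers. The 14 genes summed to 694 to 698 FPKM in cinobufagin libraries and 863 to 931 FPKM in DMSO libraries, mostly from KRT8 and KRT18. Of the 9 tested, 3 rose (OTX2 by 0.61, MITF by 0.31 and the phagocytosis receptor gene MERTK by 0.69 on the log2 scale), 3 fell (KRT8 by 0.52, KRT18 by 0.48 and PMEL by 0.35) and 3 were not called. Over all genes tested, 39.2% rose and 28.4% fell. Of 11 endothelial, immune, neural and muscle markers, 10 were under 1 FPKM in every library. The exception was CD68, a lysosomal membrane protein gene. That list summed to 79.7 to 80.6 FPKM in cinobufagin libraries and 114 to 127 FPKM in DMSO libraries, and its part in the results was not tested.

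Promoter sequences from RefSeq (GRCh38.p14) were at hand for 6 of the 9 genes. Those of APOE, TIMP3 and HTRA1 are shown because these genes changed in both directions and no annotated exon of the gene reaches into the window. Each is on the plus strand and covers bases 250 to 46 before the RefSeq start of transcription, 205 bases, at chr19:44905546-44905750, chr22:32801455-32801659 and chr10:122461303-122461507. GENCODE places the first base of HTRA1 further upstream, at 122458551, so the HTRA1 window lies inside that gene span and precedes the RefSeq start alone. Capitals mark GGGCGG, the GC box that SP1 binds, on either strand.
APOE: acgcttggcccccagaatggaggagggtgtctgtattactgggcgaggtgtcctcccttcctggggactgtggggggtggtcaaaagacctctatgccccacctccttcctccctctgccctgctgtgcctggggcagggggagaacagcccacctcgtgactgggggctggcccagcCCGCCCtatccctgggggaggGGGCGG
TIMP3: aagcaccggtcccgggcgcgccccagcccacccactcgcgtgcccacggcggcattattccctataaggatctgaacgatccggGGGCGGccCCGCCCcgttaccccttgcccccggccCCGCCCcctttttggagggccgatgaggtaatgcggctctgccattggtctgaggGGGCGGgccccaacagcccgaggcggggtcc
HTRA1: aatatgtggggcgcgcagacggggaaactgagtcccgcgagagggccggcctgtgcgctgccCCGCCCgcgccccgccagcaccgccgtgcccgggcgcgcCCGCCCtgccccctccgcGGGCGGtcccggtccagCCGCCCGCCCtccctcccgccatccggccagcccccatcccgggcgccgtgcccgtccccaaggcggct
The motif occurred 2 times in the APOE window, 4 times in the TIMP3 window and 5 times in the HTRA1 window, where a pair of matches overlaps. The window of CST3 held 1 match, that of FBLN5 held 2 and that of VTN held 0. GGGCGG was present in 35.9% of the 35116 RefSeq promoter windows of this length. TATAAA (the TATA box), TGANTCA (the AP-1 site) and TTCNNGAA (a heat shock element) were searched on both strands as well, and were present in 7.75%, 5.40% and 5.45% of all windows. Among the 6 genes, the only match to any of these was TTCNNGAA in the CST3 window, at 1 place. GC bases made up 67.3% of the APOE, 71.2% of the TIMP3 and 81.0% of the HTRA1 window, against a median of 57.6% over all windows. These matches describe letters in a window, and genes with GC boxes are found among those that rose and those that fell.

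Cinobufagin-treated cells had over 4-fold more CLU transcript, 1.39-fold more HTRA1, and slightly more EFEMP1 (1.23-fold) and CST3 (1.15-fold). They had less APOE, TIMP3 and SERPINF1 transcript. All 9 genes passed the filter of at least 1 FPKM in at least 3 libraries. Of these, 4 rose, 3 fell and 2 were not called (limma-trend on log2 of FPKM + 1, Benjamini-Hochberg adjusted p under 0.05 over 11599 genes). Of all genes tested 67.7% were called, 39.2% as higher and 28.4% as lower, so 7 of 9 is close to the background. The groups did not overlap in 7 of the 9 genes, and in 70.8% of all genes tested. The median log2 fold change was 0.05 over the 9 genes and 0.06 over all genes tested. A rise of at least 1 on the log2 scale was seen in 0.957% of genes tested and, among the 9, in CLU. In bulk samples, fewer cells of a kind and less RNA per cell cannot be told apart, and FPKM gives levels relative to each library's total.

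**Figure D1:**
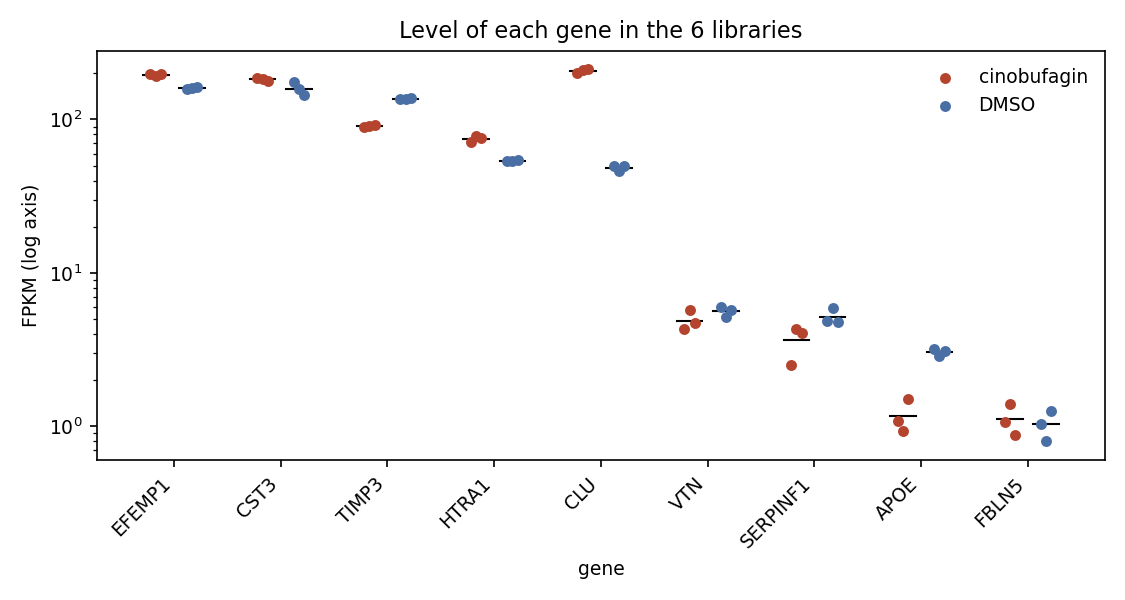
FPKM (log axis) of the 9 genes in each of the 3 cinobufagin (left, red) and 3 DMSO (right, blue) libraries, ordered by level in DMSO; black bars are group means. CLU stands at 202 to 212 FPKM with cinobufagin and 46.04 to 49.95 FPKM with DMSO, while 4 genes lie below 6 FPKM in every library.

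The plot of levels by library shows a gap between 5 abundant and 4 scarce genes. With cinobufagin the order was CLU (mean 208 FPKM), EFEMP1 (197), CST3 (182), TIMP3 (90.5), HTRA1 (75.2), VTN (4.89), SERPINF1 (3.62), APOE (1.17) and FBLN5 (1.11). With DMSO it was EFEMP1 (160 FPKM), CST3 (159), TIMP3 (137), HTRA1 (54.0), CLU (48.6), VTN (5.61), SERPINF1 (5.15), APOE (3.04) and FBLN5 (1.03). Neighbours whose libraries overlapped were VTN and SERPINF1 in both groups, APOE and FBLN5 with cinobufagin, and EFEMP1 and CST3 with DMSO. Among all 17945 genes CLU had rank 326 by mean level with cinobufagin and rank 1659 with DMSO, and TIMP3 had rank 820 and rank 539.

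CLU (gene ID 1191, chromosome 8, 27596917 to 27615031 on GRCh38, minus strand) encodes clusterin, a secreted chaperone that binds misfolded proteins and lipids. Its level was 201.89, 208.93 and 212.38 FPKM in cinobufagin libraries, against 49.84, 46.04 and 49.95 FPKM in DMSO libraries. The groups lay far apart, and even the lowest cinobufagin library stood 4.04-fold above the highest DMSO library. The mean was 208 ± 5.35 FPKM with cinobufagin and 48.6 ± 2.23 FPKM with DMSO (SD, n = 3 each). On the log2 scale of FPKM + 1 CLU rose by 2.07 (SE 0.04, limma adjusted p = 2.48e-11), and 2 of the 11599 genes tested rose by more on this scale. The scale understates the change of low genes, so this rank need not hold for fold changes of FPKM. CLU shares exonic bases with a microRNA gene on the same strand.

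APOE (gene ID 348, chromosome 19, 44905754 to 44909393, plus strand), the lipid carrier of cholesterol-rich particles, went the other way at a low level. It had 1.08, 0.93 and 1.51 FPKM in cinobufagin libraries, against 3.18, 2.87 and 3.08 FPKM in DMSO libraries. The groups did not overlap, and the cinobufagin libraries differed more among themselves than the DMSO libraries did. Means were 1.17 ± 0.301 FPKM with cinobufagin and 3.04 ± 0.158 FPKM with DMSO (SD, n = 3 each), 2.59-fold lower with cinobufagin. On the log2 scale of FPKM + 1, which understates the change of low genes, APOE fell by 0.90 (SE 0.10, limma adjusted p = 9.56e-06). APOE shares exonic bases with another annotated entry on the same strand, so its reads are uncertain. Within a library, CLU stood at 141 to 225 times the APOE level with cinobufagin and 15.7 to 16.2 times with DMSO.

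Receptor genes of the low-density lipoprotein family and of the sortilins, which take up particles that carry clusterin or apolipoprotein E, moved both ways. The 9 tested divided into 4 that rose, 2 that fell and 3 below the threshold, with a median log2 fold change of 0.09. Counted among the rises is LRPAP1, whose product associates with these receptors and is not itself one of them. All genes tested gave 39.2% that rose and 28.4% that fell, with a median of 0.06. SORT1, which encodes the sorting receptor sortilin, had 73.29, 66.36 and 70 FPKM in cinobufagin libraries, against 42.87, 44 and 40.62 FPKM in DMSO libraries, and rose by 0.70 (SE 0.05, limma adjusted p = 1.94e-07). VLDLR rose by 0.46 on the log2 scale. LRP8, a receptor for apolipoprotein E and reelin, fell by 0.74 on the same scale. LRP1, the most abundant receptor of the list, was at 123 ± 7.97 FPKM with cinobufagin and 118 ± 3.74 FPKM with DMSO (SD, n = 3 each) and did not pass (limma adjusted p = 0.287).

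Among 15 tested genes listed under lipoproteins and cholesterol export, 4 rose, 7 fell and 4 were not called, and the median log2 fold change was -0.04. The falls include APOL2, APOL6 and APOO, which were counted as apolipoproteins by name. The shares over all genes tested were 39.2% and 28.4%. APOC1, the neighbour of APOE on chromosome 19, had 3.55, 4.33 and 2.47 FPKM in cinobufagin libraries, against 10.37, 7.96 and 7.99 FPKM in DMSO libraries. It fell by 1.15 (SE 0.14, limma adjusted p = 1.96e-05), with no overlap between groups, and it has a pseudogene copy that makes its read assignment uncertain. PLTP, the phospholipid transfer protein gene, fell by 0.61. APOM, an apolipoprotein of high-density particles, rose by 0.52 and NR1H3, the sterol receptor LXR alpha, rose by 0.53 on the log2 scale. The cholesterol exporter ABCA1 was at 4.12 ± 0.0961 FPKM with cinobufagin and 3.90 ± 0.336 FPKM with DMSO (SD, n = 3 each) and did not pass (limma adjusted p = 0.448).

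HTRA1 (gene ID 5654, chromosome 10, 122458551 to 122514908, plus strand) encodes a secreted trypsin-like protease that cleaves fibronectin, fibulins and other matrix proteins. Its level was 70.91, 78.56 and 75.99 FPKM in cinobufagin libraries, against 53.93, 53.43 and 54.68 FPKM in DMSO libraries. Every cinobufagin library lay above every DMSO library, by 1.30-fold at the least. The mean was 75.2 ± 3.89 FPKM with cinobufagin and 54.0 ± 0.629 FPKM with DMSO (SD, n = 3 each), a difference of 0.47 on the log2 scale (SE 0.05, limma adjusted p = 3.00e-06). HTRA1 shares exonic bases with an antisense gene, and without a stated strand setting their reads cannot be told apart. Of its family, HTRA2, a protease of the mitochondrial intermembrane space, was the member tested. It rose by 0.20 (limma adjusted p = 0.0199) but lost the call under 5 of 13 alternatives, with an adjusted p of up to 0.0968 without cinobufagin replicate 3.

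TIMP3 (gene ID 7078, chromosome 22, 32801701 to 32863043, plus strand) encodes the tissue inhibitor of metalloproteinases that stays bound to the matrix of Bruch's membrane. Levels of 89.79, 90.2 and 91.51 FPKM in cinobufagin libraries stood against 136.9, 135.65 and 137.47 FPKM in DMSO libraries. Relative to their means these were the tightest groups of the 9 genes, and they did not overlap. TIMP3 averaged 90.5 ± 0.898 FPKM with cinobufagin and 137 ± 0.931 FPKM with DMSO (SD, n = 3 each), and fell by 0.59 on the log2 scale (SE 0.04, limma adjusted p = 6.77e-08). The gene lies within the span of SYN3, a synapsin gene with which it shares no exonic bases. SYN3 had 0.93, 1.02 and 1.11 FPKM in cinobufagin libraries, against 2.2, 2.47 and 2.24 FPKM in DMSO libraries, and fell by 0.71 (SE 0.08, limma adjusted p = 1.21e-05), or by 1.10 with a pseudocount of 0.1.

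The other TIMP genes and the proteases that TIMP3 inhibits were counted together. The 13 tested gave 3 rises, 7 falls and 3 without a call, at a median log2 fold change of -0.26. Over all genes tested, rises made up 39.2% and falls 28.4%. The aggrecanase gene ADAMTS5 had 0.3, 0.25 and 0.3 FPKM in cinobufagin libraries, against 1.61, 1.63 and 1.5 FPKM in DMSO libraries, and fell by 1.01 (SE 0.08, limma adjusted p = 8.19e-07). It met the filter only through the DMSO libraries, and it fell by 2.13 with a pseudocount of 0.1. ADAMTS9, counted among the falls and named after its values were seen, met the filter only through the DMSO libraries as well. It had 0.8, 0.65 and 0.57 FPKM in cinobufagin libraries, against 1.25, 1.08 and 1.25 FPKM in DMSO libraries. ADAMTS1, a related protease, fell by 0.87, the gelatinase gene MMP2 fell by 0.76 and the membrane protease gene MMP15 fell by 0.40 on the log2 scale. TIMP1 was at 161 ± 4.88 FPKM with cinobufagin and 152 ± 5.08 FPKM with DMSO (SD, n = 3 each) and did not pass (limma adjusted p = 0.125). TIMP2, the most abundant of the family and named after its values were seen, was at 631 ± 11.99 FPKM with cinobufagin and 760 ± 10.9 FPKM with DMSO (SD, n = 3 each) and fell by 0.27. The rising count of this list was 1 in place of 3 after median centring, without the filter, without the mean-variance trend and without cinobufagin replicate 3, and the falling count was 4 at a filter of 5 FPKM.

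CST3 (gene ID 1471, chromosome 20, 23626706 to 23638473, minus strand) encodes cystatin C, a secreted inhibitor of cysteine cathepsins. It had 185.51, 184.47 and 177.27 FPKM in cinobufagin libraries, against 174.32, 157.62 and 144.82 FPKM in DMSO libraries. The groups came within 1.02-fold of each other without overlapping, because the DMSO libraries were spread widely. The mean was 182 ± 4.49 FPKM with cinobufagin and 159 ± 14.8 FPKM with DMSO (SD, n = 3 each), a difference of 0.20 on the log2 scale (SE 0.06, limma adjusted p = 0.00937).

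The list of other cystatins and cysteine cathepsins, which also counts the legumain gene LGMN, split evenly. Of 11 tested genes 5 were higher, 5 lower and 1 not called, at a median log2 fold change of 0.01. CSTB, the only other cystatin gene tested, rose by 0.27 and LGMN rose by 0.57, both named after their values were seen. Of all genes tested, 39.2% were higher and 28.4% lower. Cathepsins H, K, V and C were among the genes that fell. CTSH had 169.86, 174.63 and 168.57 FPKM in cinobufagin libraries, against 426.82, 405.52 and 406.53 FPKM in DMSO libraries, and fell by 1.27 (SE 0.04, limma adjusted p = 3.25e-10). CTSK, a collagen-degrading cathepsin, fell by 1.02 and CTSC fell by 0.68 on the log2 scale. CTSV had 0.77, 1.02 and 0.54 FPKM in cinobufagin libraries, against 2.46, 2.18 and 2.37 FPKM in DMSO libraries, and met the filter through the DMSO libraries. It fell by 0.92, or by 1.51 with a pseudocount of 0.1, and by FPKM it was 3.01-fold lower with cinobufagin, while CTSH was 2.41-fold lower. CTSL was at 93.5 ± 4.39 FPKM with cinobufagin and 92.9 ± 1.42 FPKM with DMSO (SD, n = 3 each) and did not pass (limma adjusted p = 0.862).

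SERPINF1 (gene ID 5176, chromosome 17, 1761959 to 1777574, plus strand) encodes pigment epithelium-derived factor, an inhibitor of new vessel growth that does not inhibit proteases. In cinobufagin libraries it had 2.49, 4.31 and 4.07 FPKM, against 4.82, 5.86 and 4.78 FPKM in DMSO libraries. Cinobufagin replicate 1 was the lowest of the 6, and the groups were separate by a narrow margin. Means were 3.62 ± 0.989 FPKM with cinobufagin and 5.15 ± 0.612 FPKM with DMSO (SD, n = 3 each), a difference of -0.43 on the log2 scale (SE 0.14, limma adjusted p = 0.0156). Leaving out DMSO replicate 2 ended the call (-0.35, limma adjusted p = 0.0537), as did dropping the filter on low values (limma adjusted p = 0.0693). Its adjusted p ran between 0.00251 and 0.0693 under the alternatives. Without cinobufagin replicate 1 the difference was smaller, at -0.24 (limma adjusted p = 0.0441).

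Both tested genes for receptors of this factor rose, as did 39.2% of all genes tested. PNPLA2, a lipase of lipid droplets that also binds the factor, had 67.55, 74.11 and 73.25 FPKM in cinobufagin libraries, against 37.21, 29.44 and 35.59 FPKM in DMSO libraries. It rose by 1.06 (SE 0.07, limma adjusted p = 2.23e-07). PLXDC2 rose by 0.69 on the log2 scale (SE 0.06, limma adjusted p = 1.01e-06). Of 10 other serpin genes, 3 rose, 6 fell and 1 was not called, and their median log2 fold change was -0.27. Over all genes tested the share that fell was 28.4%. SERPINI1, neuroserpin, had 7.55, 5.06 and 5.74 FPKM in cinobufagin libraries, against 1.28, 1.6 and 1.06 FPKM in DMSO libraries, and rose by 1.61 (SE 0.12, limma adjusted p = 4.52e-07). The log2 scale of FPKM + 1 understates this change. By mean FPKM, SERPINI1 was 4.66-fold higher with cinobufagin, and CLU 4.27-fold. SERPING1, the inhibitor of complement C1, fell by 0.62 on the log2 scale. SERPINB7 had 1.45, 0.68 and 0.89 FPKM in cinobufagin libraries, against 2.32, 2.59 and 2.75 FPKM in DMSO libraries, and met the filter through the DMSO libraries. It fell by 0.84, or by 1.32 with a pseudocount of 0.1.

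**Figure D2:**
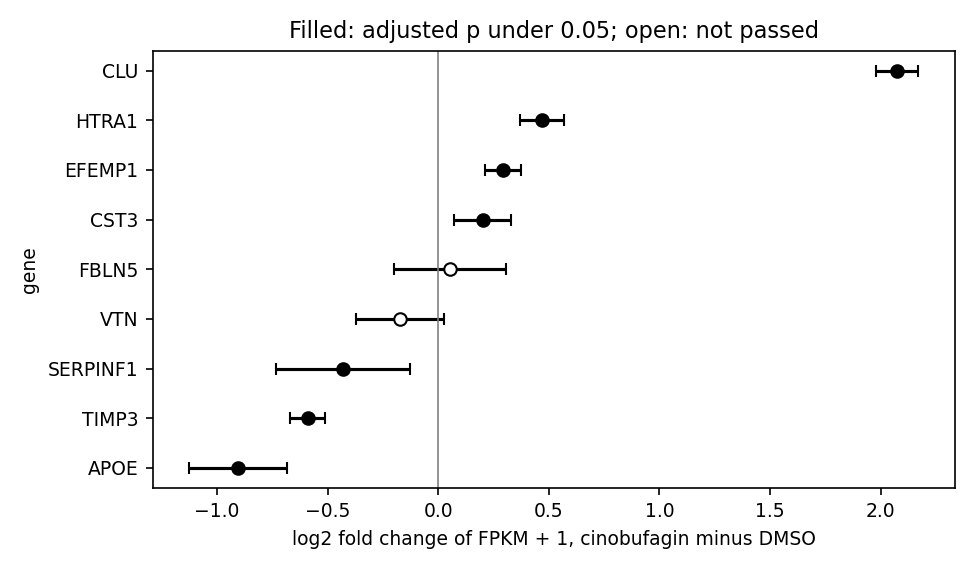
Log2 fold change of FPKM + 1 (cinobufagin minus DMSO, 3 libraries each) of the 9 genes with 95% confidence intervals from limma; filled points passed an adjusted p of 0.05 and open points did not. CLU stands at 2.07, the other called genes lie between -0.90 and 0.47, and the intervals of FBLN5 and VTN include 0.

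EFEMP1 (gene ID 2202, chromosome 2, 55865967 to 55924139, minus strand) encodes fibulin-3, a glycoprotein that collects under the retinal pigment epithelium in Malattia Leventinese. Levels were 199.39, 193.41 and 196.79 FPKM in cinobufagin libraries, against 157.46, 160.46 and 163.36 FPKM in DMSO libraries. The groups were tight and did not overlap. The mean was 197 ± 3.00 FPKM with cinobufagin and 160 ± 2.95 FPKM with DMSO (SD, n = 3 each), a small rise of 0.29 on the log2 scale (SE 0.04, limma adjusted p = 2.69e-05).

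VTN (gene ID 7448, chromosome 17, 28367276 to 28373091, minus strand) encodes vitronectin, an adhesive protein of plasma and drusen. It had 4.29, 5.69 and 4.68 FPKM in cinobufagin libraries, against 5.95, 5.17 and 5.72 FPKM in DMSO libraries. The groups overlapped through cinobufagin replicate 2, and VTN did not pass (log2 fold change -0.17, 95% interval -0.37 to 0.03, limma adjusted p = 0.109). It passed without that library (-0.27, limma adjusted p = 0.0163) and after median centring (-0.22, limma adjusted p = 0.0485). Under the alternatives its adjusted p ran between 0.0163 and 0.370. VTN shares exonic bases with another protein-coding entry of the annotation on the same strand, so its reads are uncertain.

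FBLN5 (gene ID 10516, chromosome 14, 91869412 to 91947987, minus strand) encodes fibulin-5, which guides the assembly of elastic fibres. It was near the detection filter, at 1.06, 1.4 and 0.87 FPKM in cinobufagin libraries, against 1.03, 0.8 and 1.26 FPKM in DMSO libraries. The groups were intermixed and the gene did not pass (log2 fold change 0.05, 95% interval -0.20 to 0.31, limma adjusted p = 0.690).

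Of the other genes of fibulins and elastic fibres, the 13 tested gave 2 rises, 10 falls and 1 without a call, against 28.4% of all genes tested that fell, with a median log2 fold change of -0.35 against 0.06 over all genes tested. The number of falls ran between 8 and 12 under the alternatives. Lysyl oxidases, which cross-link elastin and collagen, were among them. LOXL2 had 82.68, 80.78 and 87.53 FPKM in cinobufagin libraries, against 182.93, 164.36 and 177.55 FPKM in DMSO libraries, and fell by 1.05 (SE 0.05, limma adjusted p = 7.75e-09). LOX and LOXL1 each fell by 0.99, and the microfibril gene FBN2 fell by 0.70 on the log2 scale. LOXL4, counted among the falls and named after its values were seen, fell by 0.35. It had 0.97, 0.83 and 0.78 FPKM in cinobufagin libraries, against 1.65, 1.27 and 1.22 FPKM in DMSO libraries. LOXL4 met the filter only through the DMSO libraries. The 2 rises, also named after their values were seen, were LTBP1 by 0.63 and LTBP3 by 0.34 on the log2 scale. FBN1 was at 93.1 ± 4.58 FPKM with cinobufagin and 92.7 ± 1.03 FPKM with DMSO (SD, n = 3 each) and did not pass (limma adjusted p = 0.912). EFEMP2, the closest relative of EFEMP1 and named after its values were seen, was at 72.5 ± 3.74 FPKM with cinobufagin and 96.1 ± 3.83 FPKM with DMSO (SD, n = 3 each) and fell by 0.40.

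Among 7 tested genes for receptors and partners of vitronectin, 1 rose, 4 fell and 2 were not called, at a median log2 fold change of -0.21. The shares over all genes tested were 39.2% and 28.4%. The integrin subunit gene ITGB5 rose by 0.33 and ITGB3 fell by 0.42 on the log2 scale. The urokinase receptor gene PLAUR, whose product binds vitronectin, fell by 1.08 and the urokinase gene PLAU fell by 1.00. The shared alpha subunit ITGAV was at 180 ± 0.701 FPKM with cinobufagin and 186 ± 19.7 FPKM with DMSO (SD, n = 3 each) and did not pass (limma adjusted p = 0.567).

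**Figure D3:**
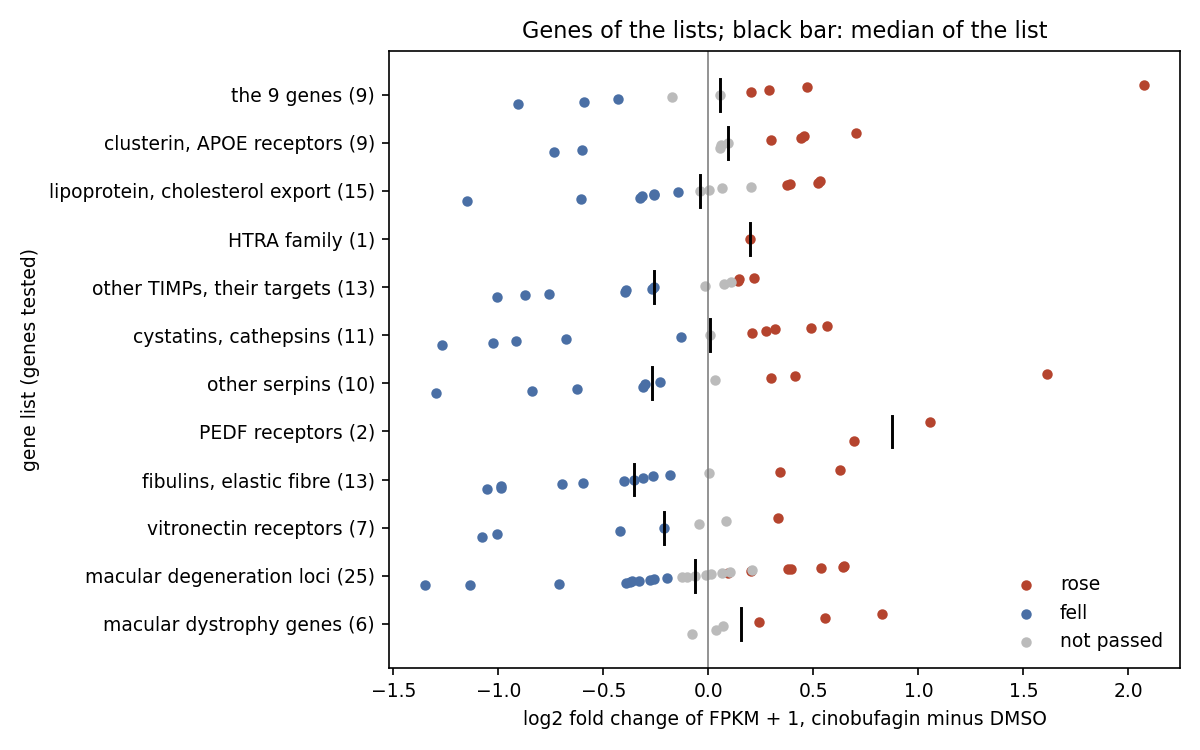
Log2 fold change of FPKM + 1 (cinobufagin minus DMSO) of each tested gene of the 9 and of 11 related lists, with the number tested in brackets; red rose, blue fell, grey did not pass, and black bars are medians. The elastic fibre list has 10 called falls and 2 called rises among 13 genes, and the dystrophy genes have 3 called rises and no called fall among 6. Of all genes tested, 39.2% rose and 28.4% fell.

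Other genes nearest to loci of age-related macular degeneration showed no common direction. They include SYN3 and TMEM97, which lie at or beside TIMP3 and VTN, and both fell. Among the 25 tested there were 7 rises, 10 falls and 8 without a call, and the median log2 fold change was -0.06. ADAMTS9, counted among these falls, met the filter only through the DMSO libraries. Over all genes tested, 39.2% rose and 28.4% fell. TSPAN10, a tetraspanin gene of pigmented cells, had 42.75, 49.16 and 42.43 FPKM in cinobufagin libraries, against 122.91, 106.2 and 117.04 FPKM in DMSO libraries, and fell by 1.35 (SE 0.07, limma adjusted p = 1.09e-08). TMEM97, the sigma-2 receptor gene beside VTN, fell by 1.13, and ACAD10 rose by 0.64 on the log2 scale. Other inherited macular dystrophies were covered by 16 listed genes, of which 6 were tested. Of these 6, 3 rose, 0 fell and 3 were not called, at a median log2 fold change of 0.16. The 3 rises stand beside the 39.2% that rose over all genes tested. None of the lists was tested as a set. The secreted C1QTNF5, which shares a transcript with MFRP so that its reads are uncertain, was at 76.4 ± 3.74 FPKM with cinobufagin and 51.7 ± 3.98 FPKM with DMSO (SD, n = 3 each) and rose by 0.56. ELOVL4, which makes very long chain fatty acids, rose by 0.83 and DRAM2 by 0.24 on the log2 scale.

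**Figure D4:**
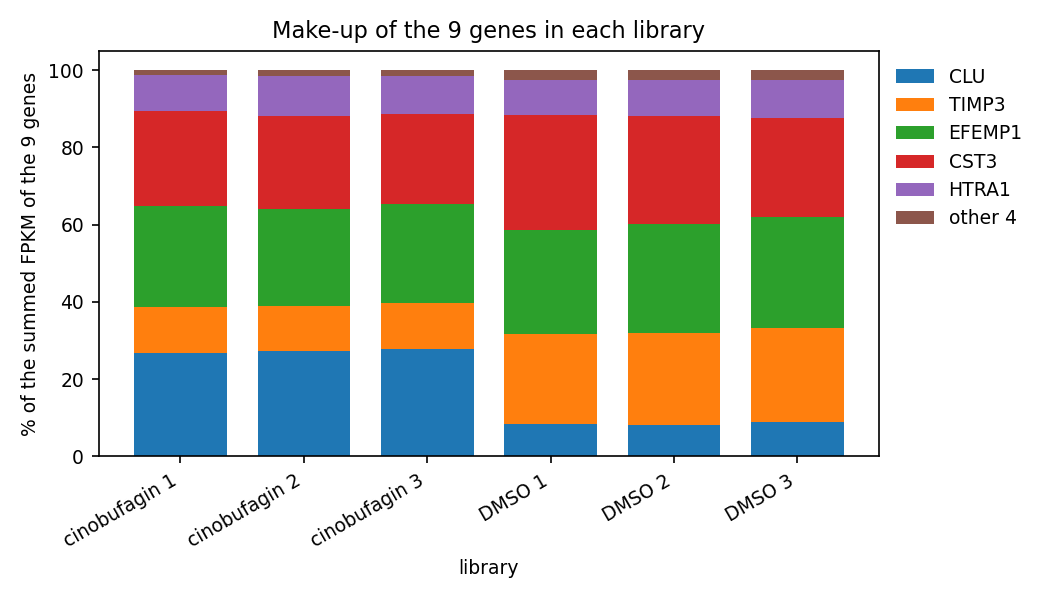
Share of each gene in the summed FPKM of the 9 genes, in percent, in each cinobufagin library (left) and each DMSO library (right); the 4 scarce genes are pooled. CLU takes 26.7% to 27.8% with cinobufagin and 8.11% to 8.84% with DMSO, and TIMP3 takes 11.7% to 11.96% with cinobufagin and 23.3% to 24.3% with DMSO.

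The make-up of the 9 transcripts therefore differed between the groups, as the plot of shares shows. Together they summed to 756 to 768 FPKM in cinobufagin libraries and 565 to 587 FPKM in DMSO libraries. Without CLU the sums were 553 to 559 FPKM with cinobufagin and 515 to 538 FPKM with DMSO, so CLU held most of the difference. CLU made up 27.2% ± 0.535 of the sum with cinobufagin and 8.48% ± 0.366 with DMSO, while TIMP3 made up 11.9% ± 0.108 with cinobufagin and 23.8% ± 0.512 with DMSO (SD, n = 3 each). The share of HTRA1 was 9.85% ± 0.434 with cinobufagin and 9.42% ± 0.248 with DMSO (SD, n = 3 each), and its groups overlapped.

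Ratios between genes of 1 library do not depend on the library's total. The level of HTRA1 was 0.790, 0.871 and 0.830 times that of TIMP3 in cinobufagin libraries, against 0.394, 0.394 and 0.398 times in DMSO libraries. The ratio of EFEMP1 to TIMP3 was 2.17 ± 0.0424 with cinobufagin and 1.17 ± 0.0206 with DMSO (SD, n = 3 each). CLU stood at 2.25 to 2.32 times the TIMP3 level with cinobufagin and 0.339 to 0.364 times with DMSO. None of these ratios overlapped between groups, and with 3 libraries a group they were given no test. Each gene of the pairs was already separate between the groups by itself. Separate ratios were thus likely beforehand and add no support of their own.

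**Figure D5:**
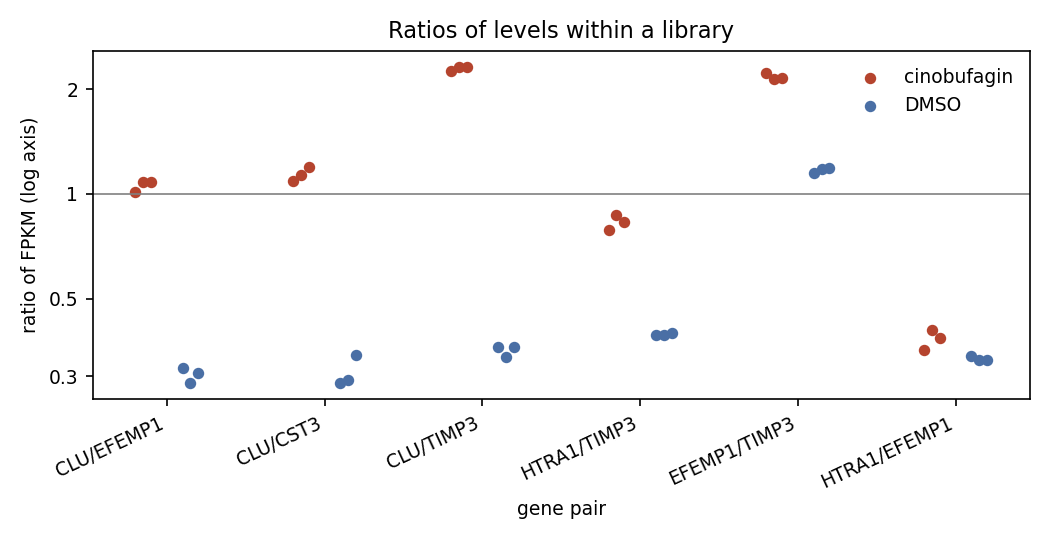
Ratio of the FPKM of the named gene pairs (log axis) within each of the 3 cinobufagin (left, red) and 3 DMSO (right, blue) libraries. Each pair is separate between the groups, as is each gene of the pairs by itself. The ratio of HTRA1 to EFEMP1 differs least, at 0.356 to 0.406 with cinobufagin and 0.333 to 0.343 with DMSO.

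The genes whose pattern was most like that of CLU were sought by the distance between log2 values of FPKM + 1, centred per gene, over the 6 libraries. The 5 nearest were TFPI2 (distance 0.16), ARRDC3 (0.24), TXNIP (0.26), IFITM10 (0.39) and SAMD11 (0.43). With 2 groups this likeness rests mainly on the size of the change between them. SAMD11, a sterile alpha motif protein gene, had 11.92, 14.88 and 12.86 FPKM in cinobufagin libraries, against 3.35, 2.94 and 3.28 FPKM in DMSO libraries, and rose by 1.76 (SE 0.08, limma adjusted p = 8.10e-09).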

How the data were processed

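RNA sequencing levels were analysed as deposited by the authors, in FPKM for each gene and library, with 2 decimals, per the file headers. Named in the submitters' processing notes are GRCh38.p13, Bowtie2, RSEM 1.3.1 and DESeq2 1.4.5, with no role for any of them. The strand setting and sequencing depth are unknown here, so no interval for counting error is given. Control columns are named mock and were taken as the DMSO libraries of the same number. Entries with no gene ID (19) were left out. Symbols came from RefSeq and positions from GENCODE 29, both on GRCh38.

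A gene entered the fit if 3 or more of the 6 libraries reached 1 FPKM, which kept 11599. Log2 of FPKM + 1 was modelled in limma 3.58.1 (R 4.3.3), using its mean-variance trend, as cinobufagin minus DMSO. The Benjamini-Hochberg adjustment covered every gene in the fit, and an adjusted p under 0.05 was called. SE is the moderated standard error, and no libraries were identical. The script was tested on simulated data. The 9 genes and the lists were chosen with earlier results of these data known. Named genes are these 9, up to 4 called genes with the largest change per list, genes that did not pass where a list is described, and the 5 nearest to CLU. Some genes of the lists that this rule names are counted with their list but not reported here. Alternatives were median centring, quantile normalization, a pseudocount of 0.1, no filter, a filter of 5 FPKM, no trend, a replicate block and leaving out each library. Figures were drawn with matplotlib 3.10.9.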

Additional observations from a re-analysis of the deposited data

How the results depend on the processing

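CLU, HTRA1, EFEMP1 and CST3 rose and TIMP3 fell, past the threshold, in the main fit and under all 13 alternatives, with log2 fold changes of 2.03 to 2.09 for CLU, 0.43 to 0.51 for HTRA1, 0.25 to 0.34 for EFEMP1, 0.14 to 0.27 for CST3 and -0.63 to -0.53 for TIMP3. CST3 came close to the threshold after median centring (0.16, limma adjusted p = 0.0445) and without DMSO replicate 3 (0.14, limma adjusted p = 0.0393). APOE fell under the 12 alternatives that tested it (-1.33 to -0.82), the largest size being that with a pseudocount of 0.1. At a filter of 5 FPKM, APOE, SERPINF1 and FBLN5 were not tested, so 1 of the 9 genes fell in place of 3. SERPINF1 did not pass without the filter (-0.43, limma adjusted p = 0.0693). VTN passed after median centring (-0.22, limma adjusted p = 0.0485). Leaving out each library in turn gave -0.54 to -0.24 for SERPINF1, -0.27 to -0.10 for VTN, and -0.04 to 0.14 for FBLN5. FBLN5 turned negative without cinobufagin replicate 2 (-0.042) and without DMSO replicate 2 (-0.03), and did not pass in either. The 5 FPKM filter, which tests fewer genes, also lowered the falls among receptors to 1, the falls among other serpins to 2 and the rises among lipoprotein genes to 2. Other causes were not tested. Same-numbered libraries did not deviate together (r over genes of -0.10 to -0.01), so the numbers were not taken as pairs. Between libraries of different number r ran from -0.11 to 0.16, highest for cinobufagin replicate 1 with DMSO replicate 2. Next came cinobufagin replicate 2 with DMSO replicate 3 (0.13) and cinobufagin replicate 3 with DMSO replicate 1 (0.07). These combinations take in every library, and a pairing other than by number was not tested. With the replicate number as a block, 4454 genes rose and 3236 fell, against 4552 and 3297 without it, and no call among the 9 genes changed. Depth is unknown, which limits what can be said of the 4 genes below 6 FPKM.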
